A study of Homo sapiens with 12 samples.

Results

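The metallothionein and zinc export set consists of 9 human genes named by symbol: the metallothioneins *MT1E*, *MT1F*, *MT1G*, *MT1M*, *MT1X* and *MT2A*, the metal-sensing transcription factor *MTF1*, the zinc exporter *SLC30A1* and the zinc importer *SLC39A10*. All 9 were matched to Ensembl IDs among the 60675 genes of the table, 8 had a count in at least 1 library and 7 passed the filter on low counts. *MT1G* and *MT1M* did not pass it. RNA was sequenced from HT29, a human colorectal adenocarcinoma cell line, after 24 h with vehicle or with a water extract of the plant *Aconitum carmichaeli* Debeaux (ACD). The extract was given at 20, 100 or 500 µg/mL, called here the low, medium and high dose, with 3 libraries in each of the 4 groups. The vehicle was labelled 2% DMSO, and all 4 groups, the extract groups included, are listed with it. In the study 2% is the DMSO content of the PBS that was added to the culture medium, so the final share in the wells was lower. A longer note on the extract among the labels names *Poria cocos* instead, whereas the titles and treatment labels, on which the groups rest, name ACD. HT29 is 1 cell line, and the labels do not say whether the 3 libraries of a group came from separate cultures, so the p-values measure the spread between libraries, which may be technical.

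Metallothioneins are small cysteine-rich proteins that bind zinc, copper and cadmium. When free zinc rises, MTF1 binds metal response elements (MREs) in the promoters of metallothionein genes and of *SLC30A1*, whose product carries zinc out of the cell, and their transcription goes up. *SLC39A10* encodes a zinc importer of the plasma membrane whose transcription is known to be repressed by MTF1 when zinc is high. Together these genes are commonly read as a sensor of metal exposure, in which induction would appear as higher metallothionein and *SLC30A1* levels with lower *SLC39A10*.

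The coding sequences of the 2 most abundant metallothioneins are shown for their metal-binding residues and for their similarity to each other. They are from GENCODE 44 on GRCh38, joined over the exons between chr16:56625852-56626971 for *MT1E* and chr16:56608656-56609354 for *MT2A*, both on the plus strand, with the cysteine codons in capitals.
MT1E: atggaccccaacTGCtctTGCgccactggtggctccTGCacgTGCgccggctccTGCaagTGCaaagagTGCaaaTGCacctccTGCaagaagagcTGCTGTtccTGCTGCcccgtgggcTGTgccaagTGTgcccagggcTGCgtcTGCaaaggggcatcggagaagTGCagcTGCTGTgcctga
MT2A: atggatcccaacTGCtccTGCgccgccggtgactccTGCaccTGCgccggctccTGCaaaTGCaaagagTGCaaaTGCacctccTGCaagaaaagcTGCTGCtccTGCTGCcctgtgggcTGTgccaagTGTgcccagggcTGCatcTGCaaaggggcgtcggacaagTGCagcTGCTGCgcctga

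Each of these reading frames holds 61 codons before the stop, of which 20 encode cysteine, and 172 of the 186 bases are identical between them (92.5%). Over all pairs of the 6 member metallothioneins the identity of the coding sequences ranged from 88.7% to 93.7%. A single chosen transcript of each gene was searched. Those of *MT1E*, *MT1F*, *MT1G*, *MT1M* and *MT2A* shared no stretch of 100 bases with an annotated transcript of another gene. In *MT1X* 22.0% of such stretches were shared with an overlapping long noncoding RNA on the same strand, which had 0 counts in every library. The deposited expected counts of all the members, before any rounding here, lay within 0.001 of a whole number in 12 of 12 libraries. This held for *MTF1*, *SLC30A1* and *SLC39A10* as for the metallothioneins. It was not counted over all genes, so it does not show how reads were shared between similar genes.

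The promoter sequences are shown with their matches to the core of the MRE, the element that MTF1 binds. RefSeq promoters (GRCh38.p14, a window of 250 bases before to 50 bases after the start) were found for *MT2A*, *MT1X*, *SLC30A1*, *MTF1* and *SLC39A10*. None was found for *MT1E*, *MT1F*, *MT1G* and *MT1M*. The MRE core was searched as TGCACNC and TGCGCNC on both strands. The stretches printed are the 250 bases before the start, written along the strand of the gene, with each match in capitals. They lie at chr16:56608334-56608583 (plus strand) for *MT2A*, chr16:56682220-56682469 (plus strand) for *MT1X* and chr1:211579162-211579411 (minus strand) for *SLC30A1*.
MT2A promoter: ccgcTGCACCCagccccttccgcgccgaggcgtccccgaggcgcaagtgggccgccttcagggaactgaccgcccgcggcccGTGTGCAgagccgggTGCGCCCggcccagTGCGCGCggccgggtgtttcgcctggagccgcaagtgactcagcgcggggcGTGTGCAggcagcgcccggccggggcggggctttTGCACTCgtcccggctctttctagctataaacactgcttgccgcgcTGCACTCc
MT1X promoter: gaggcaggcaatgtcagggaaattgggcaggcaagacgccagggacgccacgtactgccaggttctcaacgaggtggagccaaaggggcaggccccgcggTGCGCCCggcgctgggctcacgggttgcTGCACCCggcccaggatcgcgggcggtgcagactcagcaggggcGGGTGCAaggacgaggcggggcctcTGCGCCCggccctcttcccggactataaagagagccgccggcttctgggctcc
SLC30A1 promoter: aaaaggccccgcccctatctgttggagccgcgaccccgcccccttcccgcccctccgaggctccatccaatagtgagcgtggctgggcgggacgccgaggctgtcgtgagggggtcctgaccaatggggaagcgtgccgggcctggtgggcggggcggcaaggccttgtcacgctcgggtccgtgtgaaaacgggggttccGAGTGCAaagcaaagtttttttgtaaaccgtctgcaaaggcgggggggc

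The whole window of *MT2A* held 8 matches, 7 of them before the start, against 4 in *MT1X*, all before the start, and 2 in *SLC30A1*, 1 of them before the start. The *MTF1* window held 0, and the 2 listed windows of *SLC39A10* held 0 and 1. Of 35116 RefSeq promoters of the same length, 29.6% held at least 1 match, 8.6% at least 2, 0.601% at least 4 and 0.0199% at least 8. These matches are a description of the letters and not measured binding.

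The libraries held between 15941255 and 33866644 expected counts. In vehicle replicate 1 and high-dose replicate 2 short transcripts were over-represented: the log2 level changed by −0.105 and −0.174 per doubling of transcript length, where the other 10 libraries lay between −0.00209 and 0.0464. The mitochondrial share of counts was 14% to 16.6% at the high dose and 7.41% to 11% elsewhere. All 12 colon epithelium markers listed (among them *EPCAM*, *KRT8*, *VIL1* and *CDX2*) had counts, and their summed level lay between 11375 and 13603 CPM (counts scaled to library size) in every library. Of these markers *CEACAM5* alone was a differentially expressed gene (DEG, more than 1.5-fold changed with adjusted p under 0.05), higher at the high dose (log2 fold change 0.70). There 1.26% of all genes were DEGs with higher levels. At an unadjusted p under 0.05 by edgeR's quasi-likelihood test, 3 of the 12 were higher and 3 lower at the high dose. Of all genes 9.82% were higher and 10.3% lower with such a p. The 12 markers of other cell types summed to 6.56 to 9.36 CPM, and 6 of them had at most 3 counts in all libraries together.

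The plot of member levels shows each library. Metallothionein mRNA in HT29 cells was almost entirely *MT1E* and *MT2A*, and their mean levels were lower after ACD at each dose, without passing the test. CPM were scaled with TMM factors. The summed level of the 6 metallothioneins was 133, 102 and 98.9 CPM in the vehicle libraries and 89.8, 76.9 and 95.1 CPM in low-dose cells. It was 88.4, 83.2 and 88.8 CPM in medium-dose cells and 86.2, 98.5 and 82.7 CPM in high-dose cells. Every treated library lay below every vehicle library, but barely, with 98.5 CPM in the highest treated and 98.9 CPM in the lowest vehicle library. The share of all genes separated in this way was not counted, so the separation cannot be called unusual. The mean was 111 ± 18.7 CPM (SD, n = 3) in vehicle and 87.3 ± 9.36, 86.8 ± 3.14 and 89.1 ± 8.27 CPM with rising dose, differences of −21.6%, −22% and −19.9%, on which no test was run. Without vehicle replicate 1, which was rich in short transcripts, the vehicle mean was 101 CPM and the differences were −13.2%, −13.7% and −11.4%. In bulk RNA, a lower level from fewer cells expressing a gene and from less RNA per cell cannot be told apart. *MT1E* made up 68.4% to 73.8% of the sum in every library and *MT2A* 21.2% to 26.9%.

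**Figure D1:**
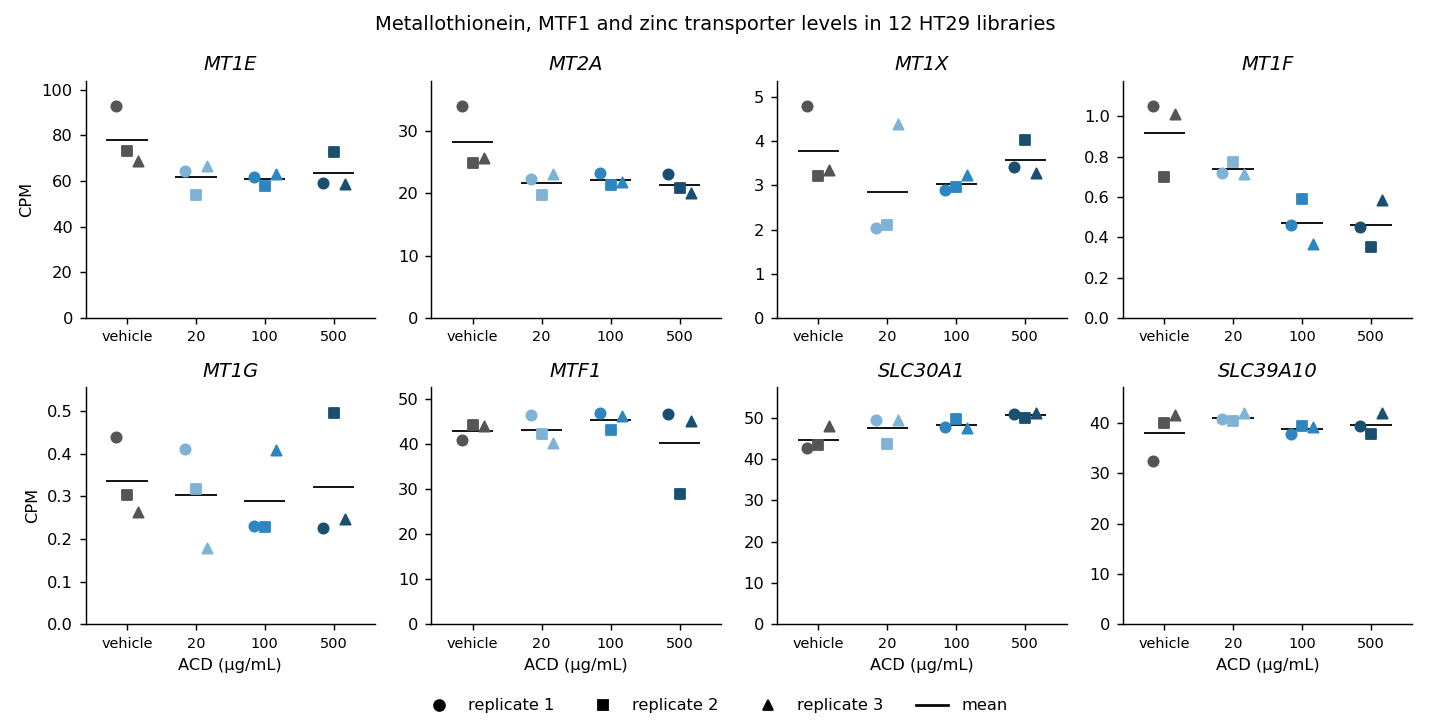
Level of 8 of the 9 genes in each library (CPM on a linear axis from 0) by dose of ACD in µg/mL, with the symbol for the replicate number and a line for the mean of 3 libraries. *MT1M*, with 0 counts in all libraries, is not drawn. *MT1E* and *MT2A* are highest in vehicle replicate 1, *SLC30A1* and *SLC39A10* vary little across the groups, and *MTF1* is lowest in high-dose replicate 2.

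Per kilobase of transcript, the vehicle level was 111 CPM per kb for *MT1E*, 70.3 for *MT2A*, 9.36 for *MT1X*, 7.57 for *SLC30A1*, 7.28 for *SLC39A10*, 5.41 for *MTF1*, 2.16 for *MT1F* and 0.819 for *MT1G*. In this order the vehicle libraries of *SLC30A1* overlapped those of both its neighbours, *MT1X* and *SLC39A10*, and the other neighbours did not overlap. *MT1M* had 0 counts in all 12 libraries, which allows a level of up to 0.0909 to 0.212 CPM per library (3 counts, counting error only). *MT1G* had 4 to 12 counts per library, with mean levels of 0.336, 0.303, 0.289 and 0.322 CPM from vehicle to the high dose.

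*MT1E* (chr16:56625475-56627112, plus strand, GRCh38) had levels of 92.6, 73.2 and 68.5 CPM in vehicle, 64.3, 54 and 66.7 in low-dose cells, 61.5, 57.9 and 62.9 in medium-dose cells and 58.9, 72.7 and 58.6 in high-dose cells. The low- and medium-dose libraries lay below all vehicle libraries, as in 9.61% and 14.1% of all genes. High-dose replicate 2 lay between the vehicle values. The log2 fold changes against vehicle were −0.34, −0.36 and −0.30 from low to high dose, with 95% intervals of −0.61 to −0.07, −0.63 to −0.09 and −0.57 to −0.03. The adjusted p from edgeR's quasi-likelihood test with Benjamini–Hochberg adjustment was 0.499, 0.27 and 0.197.

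*MT2A* (chr16:56608584-56609497, plus strand), usually the most widely expressed human metallothionein, had levels of 34, 24.9 and 25.7 CPM in vehicle and 22.4, 19.7 and 23.1 in low-dose cells. In medium-dose cells they were 23.3, 21.4 and 21.9 CPM and in high-dose cells 23.1, 20.9 and 20. The groups did not overlap at any dose, as in 9.61%, 14.1% and 11.5% of all genes, which were lower in all libraries from low to high dose, and the separation was narrowest between vehicle replicate 2 and medium-dose replicate 1. The log2 fold changes were −0.37 (SE 0.12), −0.34 (SE 0.12) and −0.40 (SE 0.12), and the adjusted p by the same edgeR test was 0.388, 0.27 and 0.0746. At the high dose the 95% interval reached from −0.65 to −0.14, and DESeq2 over all libraries gave −0.39 with an adjusted p of 0.0364, a change under the 1.5-fold limit.

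Both of these genes have short transcripts, of 704 and 401 bases. Vehicle replicate 1 had the highest *MT1E* and *MT2A* levels of all libraries. Without it the log2 fold changes from low to high dose were −0.20, −0.22 and −0.16 for *MT1E* and −0.22, −0.19 and −0.24 for *MT2A*. With a transcript length offset in the fit they were −0.18, −0.20 and −0.22 for *MT1E* and −0.17, −0.15 and −0.22 for *MT2A*. Without high-dose replicate 2 the high-dose log2 fold change was −0.40 for *MT1E* and −0.38 for *MT2A*, with adjusted p from edgeR of 0.031 and 0.04, again under 1.5-fold. With both libraries left out it was −0.27 and −0.24, with adjusted p of 0.0186 and 0.0576. The part of transcript length in the lower metallothionein levels was not tested. The plot of the summed level beside the length slope gives both for each library.

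**Figure D2:**
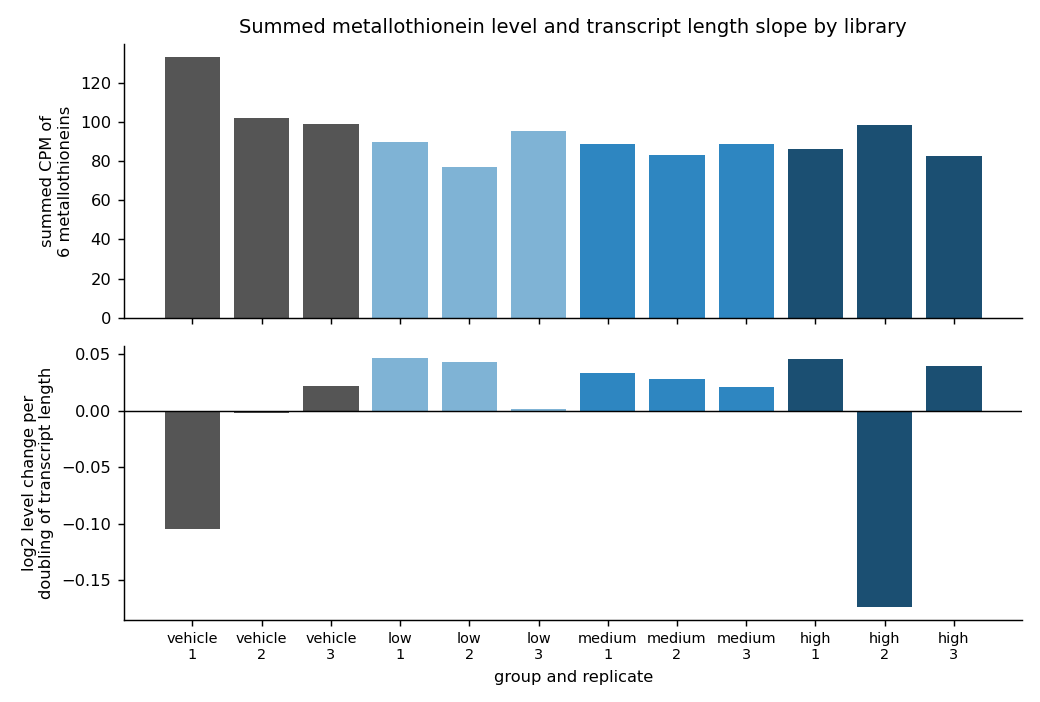
Summed level of the 6 member metallothioneins (upper bars, CPM from 0) and the log2 change in level per doubling of transcript length (lower bars) in each of the 12 libraries, named by group and replicate. Vehicle replicate 1 has the highest sum, 133 CPM, and a slope of −0.105, and high-dose replicate 2 has the highest sum among the treated libraries, 98.5 CPM, and a slope of −0.174.

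*MT1X* (chr16:56682470-56684196, plus strand) was a minor species. It had 4.79, 3.21 and 3.34 CPM in vehicle and 2.03, 2.11 and 4.39 in low-dose cells. The medium dose gave 2.89, 2.97 and 3.23 CPM and the high dose 3.42, 4.03 and 3.29. Vehicle and low-dose libraries overlapped, with low-dose replicate 3 above the rest of its group, and the high-dose libraries lay within the vehicle range. The log2 fold changes were −0.42, −0.30 and −0.07, with adjusted p of 0.755, 0.716 and 0.923 in edgeR, and the high-dose interval of −0.64 to 0.50 covered 0.

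*MT1F* (chr16:56657731-56660698, plus strand) was the member with the largest log2 fold change, at 5 to 23 counts per library. Its levels were 1.05, 0.697 and 1.01 CPM in vehicle, 0.721, 0.775 and 0.716 in low-dose cells, 0.459, 0.588 and 0.369 in medium-dose cells and 0.45, 0.354 and 0.584 in high-dose cells. All medium- and high-dose libraries lay below all vehicle and low-dose libraries. Against the low-dose libraries such a separation was found in 7.29% of all genes for the medium and 10.6% for the high dose. Against the vehicle libraries the shares were 14.1% and 11.5%. The log2 fold change was −0.28 (95% interval −0.83 to 0.26) in low-dose, −0.90 (−1.49 to −0.32) in medium-dose and −0.89 (−1.48 to −0.29) in high-dose cells. The adjusted p by edgeR's quasi-likelihood test was 0.842, 0.182 and 0.0853. With the dose rank (0 to 3) as a linear term, *MT1F* fell by 0.34 on the log2 scale per dose step (SE 0.09), with an adjusted p of 0.0357 in edgeR. Of all genes tested, 5.74% passed this trend test. The call was lost in DESeq2 (adjusted p = 0.0601) and when any 1 library was left out other than vehicle replicate 2, high-dose replicate 2 or high-dose replicate 3, down to 0 members with a trend. Without high-dose replicate 2 *MT1E* passed as well, which made 2.

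*MTF1* (chr1:37809574-37859592, minus strand), the metal sensor, had 40.8, 44.2 and 43.9 CPM in vehicle, 46.5, 42.2 and 40.3 in low-dose cells, 46.9, 43 and 46.2 in medium-dose cells and 46.6, 28.8 and 45 in high-dose cells. High-dose replicate 2 was far below the other libraries, and the transcript of *MTF1* is 7937 bases long. The log2 fold change at the high dose was −0.09 (95% interval −0.40 to 0.22), and 0.09 without that library. At the low and medium doses it was 0.00 and 0.08, and the adjusted p in edgeR was 0.999, 0.874 and 0.787 from low to high dose.

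*SLC30A1* (chr1:211571568-211579161, minus strand), the plasma membrane zinc exporter, had 42.6, 43.4 and 47.9 CPM in vehicle, 49.4, 43.7 and 49.4 in low-dose cells, 47.7, 49.7 and 47.5 in medium-dose cells and 50.9, 50 and 51.2 in high-dose cells. Only the high-dose libraries all lay above the vehicle libraries, as they did for 10.5% of all genes. The log2 fold change there was 0.18 (SE 0.07), a 95% interval of 1.91% to 26.8% more mRNA, with an adjusted p of 0.173 in edgeR. It was 0.09 in low-dose cells (adjusted p = 0.808 in edgeR) and 0.11 in medium-dose cells (adjusted p = 0.598), and stayed above 0 in all 21 alternative analyses at the high dose.

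*SLC39A10* (chr2:195575977-195737702, plus strand) had 32.5, 40 and 41.5 CPM in vehicle, 40.8, 40.4 and 42 in low-dose cells, 37.7, 39.4 and 39.2 in medium-dose cells and 39.3, 37.7 and 41.9 in high-dose cells. The vehicle libraries spanned nearly all of the treated values. The log2 fold changes were 0.11, 0.03 and 0.06 (adjusted p = 0.809, 0.939 and 0.77 in edgeR), and the 95% interval at the high dose was −8.73% to 19.2%.

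Across the set, 0 of the 7 tested genes were DEGs at any dose by edgeR's quasi-likelihood test. Of all 15374 genes tested, 2.93% were DEGs at the high, 0.676% at the medium and 0.111% at the low dose. At an unadjusted p under 0.05 the set held 4 genes at the high dose (*MT1E*, *MT1F* and *MT2A* lower, *SLC30A1* higher), against 3 after the medium and 2 after the low dose, beside 20.1%, 11.7% and 7.95% of all genes. All of those at the medium and low doses were metallothioneins with lower levels. Of all genes 10.3%, 6.6% and 4.58% had such a p with a lower level from high to low dose, and 9.82% with a higher level in high-dose cells. DESeq2 over all libraries also called 0 members at each dose, with 4, 3 and 2 at an unadjusted p under 0.05. The 3 comparisons share the vehicle libraries, so the like values at the 3 doses are not separate evidence. The median log2 fold change of the 4 tested metallothioneins was −0.36, −0.35 and −0.35 from low to high dose, and that of all genes was −0.0014, −0.0095 and 0.0052. All 4 had estimates below 0 at each dose, as had 50.3%, 52.3% and 49% of all genes.

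**Figure D3:**
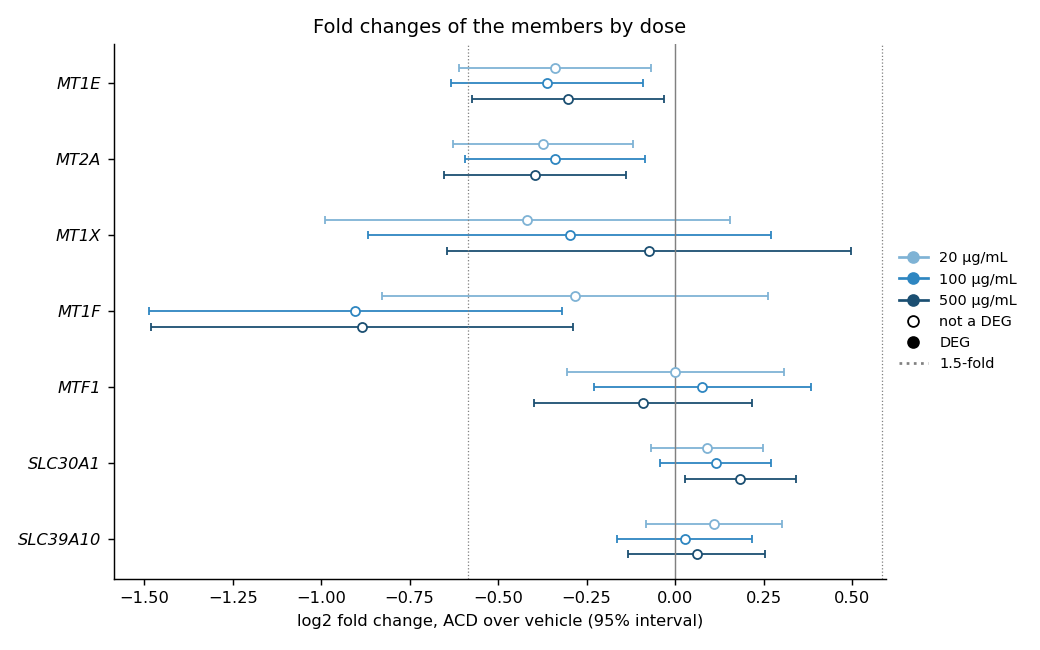
Log2 fold change of the 7 tested genes against vehicle at 20, 100 and 500 µg/mL, with 95% intervals from edgeR's quasi-likelihood fit. Open symbols are genes that were not DEGs, and the dotted lines mark a 1.5-fold change. All 4 metallothioneins have estimates below 0 at each dose, no symbol is filled, and the intervals of *MTF1* and *SLC39A10* cover 0 throughout.

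For induction, the intervals set limits. With all libraries in the fit, the upper 95% bound of *MT1E* and *MT2A* was below 0 at every dose, and that of *MT1X* at the high dose was 41.1% above vehicle. Without vehicle replicate 1 the upper bounds on the log2 scale were 0.05, 0.03 and 0.09 for *MT1E* and −0.02, 0.02 and −0.04 for *MT2A* from low to high dose. With the transcript length offset those of *MT1E* stayed below 0, and those of *MT2A* were 0.07, 0.09 and 0.02. In the comparisons between doses 0 of the 7 members were DEGs in edgeR or DESeq2, beside 1.58% of all genes between high and low, 0.488% between high and medium and 0.104% between medium and low. Of the members, *MT1F* alone, and between medium and low dose alone, reached an unadjusted p under 0.05 there in edgeR (log2 fold change −0.62, adjusted p = 1). DESeq2 over all libraries had 0 such members. Of all genes, 15.4% (high and low), 9.85% (high and medium) and 3.52% (medium and low) had such a p in edgeR.

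The other genes of zinc and copper handling were read from lists of 41 genes, of which 40 were matched and 28 tested. In edgeR 0 of the 28 were DEGs at any dose, and their median log2 fold change at the high dose was 0.04. At an unadjusted p under 0.05 there were 6, 1 and 0 from high to low dose, beside 20.1%, 11.7% and 7.95% of all genes. DESeq2 over all libraries also gave 0 DEGs at each dose. Among the other 9 metallothionein genes and pseudogenes only *MT1A* and *MT3* were tested, and *MT1A*, a metallothionein known for strong metal induction, had 1.16, 0.788 and 0.791 CPM in vehicle and 0.495, 0.637 and 0.584 at the high dose. These groups did not overlap (log2 fold change −0.65, adjusted p = 0.238 by edgeR), at 9 to 26 counts per library. Of all genes, 11.5% were likewise lower in all high-dose libraries.

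Of the other zinc exporters, 6 of 9 were tested. *SLC30A9*, the one with the highest level, had a log2 fold change of 0.22 (SE 0.08, adjusted p = 0.133 in edgeR) at the high dose. *SLC30A5*, which loads zinc into the secretory pathway, had 0.22 and *SLC30A7*, of the Golgi, −0.12. Of the other importers, 11 of 13 were tested, and *SLC39A1*, a plasma membrane importer with the highest level of them, had 173 ± 8.83 CPM in vehicle and 194 ± 2.49 at the high dose (n = 3), with a log2 fold change of 0.17 and an adjusted p of 0.182 in edgeR.

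*SLC39A6*, a zinc importer that forms a complex with the *SLC39A10* product, was the only transporter with an adjusted p under 0.05. It had 59.4, 58.7 and 62.3 CPM in vehicle, 61.9, 63.5 and 63.8 in low-dose cells, 67.4, 65.3 and 65.1 in medium-dose cells and 73.8, 77.7 and 72.3 in high-dose cells. The medium- and high-dose libraries all lay above the vehicle libraries, as they did for 14.5% of all genes at the medium and 10.5% at the high dose. The log2 fold change at the high dose was 0.31 (SE 0.06, adjusted p = 0.00934 in edgeR), below the 1.5-fold limit, and 0.10 per dose step in the trend (adjusted p = 0.00679). *SLC39A5* had the lowest log2 fold change of the importers, −0.42, with an adjusted p of 0.0779 in edgeR.

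**Figure D4:**
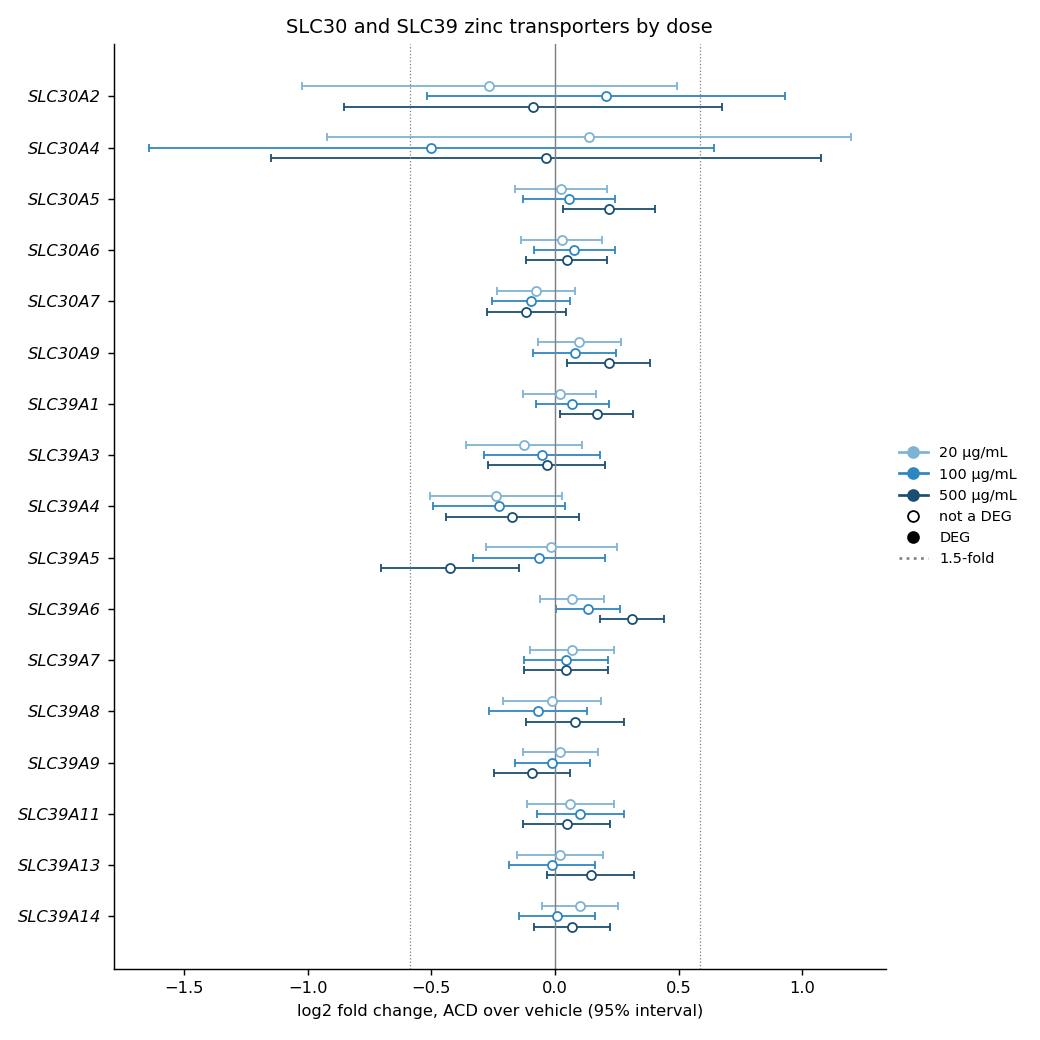
Log2 fold change against vehicle, with 95% intervals, of the SLC30 zinc exporters and SLC39 zinc importers tested, without *SLC30A1* and *SLC39A10*, at 20, 100 and 500 µg/mL. No symbol is filled, since none was a DEG; *SLC39A6* at the high dose has an interval from 0.18 to 0.44, and *SLC30A2* and *SLC30A4*, at under 1 CPM, have the widest intervals.

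Genes that many metals and oxidants induce beside the metallothioneins were read from a further list. Of the 10 metal stress genes listed 9 were tested, and 4 were DEGs with higher levels at the high dose, against 2 after the medium and 0 after the low dose (1 there at an unadjusted p under 0.05 in edgeR). Of all genes 1.26%, 0.384% and 0.065% were DEGs with higher levels at these doses. The list was chosen with earlier results of these data known, so its excess over these shares is not a test of the list. DESeq2 over all libraries gave 0 in the low-dose comparison too. *SLC7A11*, the cystine importer, had 130, 142 and 145 CPM in vehicle and 338, 269 and 351 at the high dose, a log2 fold change of 1.20 (SE 0.10, adjusted p = 2.93e-05 in edgeR). *HMOX1*, the heme-degrading enzyme, had 9.69, 8.3 and 9.32 CPM in vehicle and 17.2, 22.4 and 18.4 at the high dose (1.09, SE 0.11, adjusted p = 9.38e-05 in edgeR). Neither gene's groups overlapped, and 10.5% of all genes were likewise higher in all high-dose libraries. High-dose replicate 2 was the lowest of its group for *SLC7A11* and the highest for *HMOX1*.

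*TXNRD1*, a thioredoxin reductase, and *GCLM*, the modifier subunit of the rate-limiting enzyme of glutathione synthesis, rose at the high dose by 0.72 and 0.75 on the log2 scale (adjusted p = 7.73e-05 and 0.000335 in edgeR). These 4 genes remained DEGs at the high dose without vehicle replicate 1, without high-dose replicate 2, without both and with the length offset. At the medium dose *TXNRD1* (0.65) and *SLC7A11* (0.61) were DEGs. *SRXN1*, a sulfiredoxin, had 0.43 at the high dose (adjusted p = 0.00229 in edgeR), under 1.5-fold. The heat shock genes, which respond to metals through misfolded protein, were not DEGs: *HSPA1A* had a log2 fold change of 0.17, *HSPA1B* 0.20, *DNAJB1* 0.18 and *BAG3* −0.02 at the high dose. The 95% intervals were 3.3% to 27.3% more mRNA for *HSPA1B* and 3.46% to 23.2% for *DNAJB1* (adjusted p = 0.129 and 0.106 in edgeR). Both were higher in all high-dose libraries, as were 10.5% of all genes. The intervals of *HSPA1A* and *BAG3* covered 0. No difference between a metallothionein and one of these genes was tested as such; with all libraries in the fit, at the high dose the upper bound for *MT2A* was −0.14 and the lower bound for *HMOX1* 0.85.

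**Figure D5:**
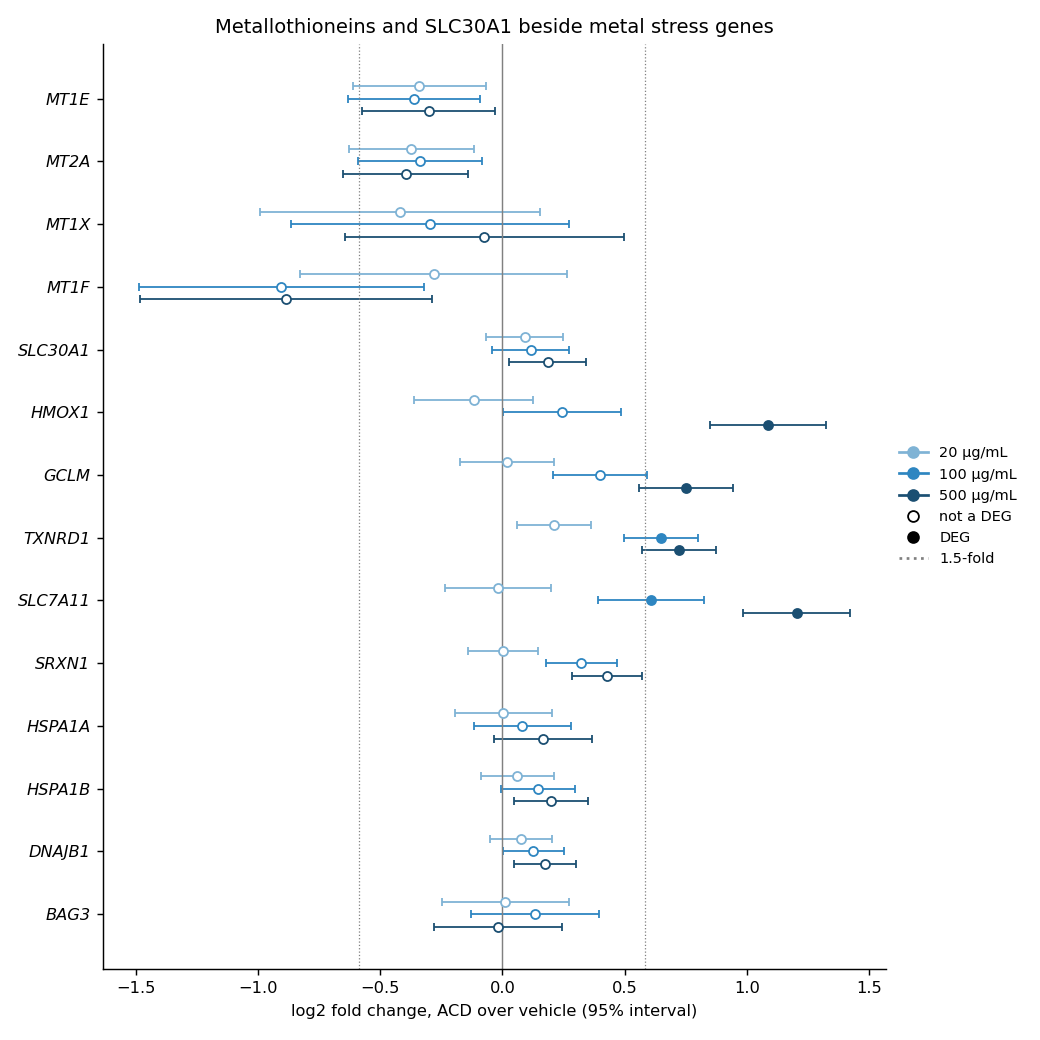
Log2 fold change against vehicle, with 95% intervals, of the 4 tested metallothioneins and *SLC30A1* (top) and of 9 metal stress genes at 20, 100 and 500 µg/mL. Filled symbols are DEGs and the dotted lines mark a 1.5-fold change; filled symbols appear for *HMOX1*, *GCLM*, *TXNRD1* and *SLC7A11*, at the medium or high dose, and not for a metallothionein or a heat shock gene.

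The genes whose pattern over the 12 libraries was closest to that of the member metallothioneins with a mean of at least 1 CPM (the average of *MT1E*, *MT1X* and *MT2A*, each weighted alike) were looked for among 13135 genes above the same level. Closeness was the mean absolute difference in vehicle-centred log2 CPM, which had a median of 0.321 over all genes. The 5 closest were *RPS28* (0.0694), *TRADD*, *PLEKHJ1*, *CDK2AP2* and *TSR3* (0.0836). *RPS28*, a small ribosomal subunit protein, had 211 ± 49.7 CPM in vehicle and 174 ± 12 at the high dose, and none of the 5 was a DEG. Their annotated canonical transcripts were 909 to 1483 bases long, where the genes compared had a median of 3092.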

How the data were processed

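RNA from 12 HT29 libraries was analysed. The authors deposited expected counts per gene from RSEM, not normalized. Per the submitters' processing notes, FastQC 0.11.9, Trim Galore 0.6.5, STAR 2.7.3a and RSEM 1.3.3 were used with GRCh38. The kit was directional, and the strand setting of RSEM is not given in the sources used here. Expected counts were rounded to whole numbers.

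The 4 groups were fitted together with edgeR 4.0.16 (R 4.3.3) by the quasi-likelihood test with filterByExpr, TMM and robust estimation, and 15374 genes were tested. Within each comparison, Benjamini–Hochberg adjustment covered all genes tested. Tests were two-sided. A gene was a DEG when it changed more than 1.5-fold with adjusted p under 0.05, and the dose trend needed an adjusted p under 0.05 alone. Intervals are 95% and standard errors were obtained from the F statistic. The common biological coefficient of variation was 11.2%. Log2 CPM used a prior count of 2. DESeq2 1.42.0, other filters and scalings, a transcript length offset, a replicate block and leaving out each library were alternatives. Leaving out both libraries rich in short transcripts was added after seeing the data. The fit was also run on simulated data with the same spread for every gene and no shift with transcript length. That run therefore says nothing on the shift seen in the 2 libraries rich in short transcripts.

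The members and lists were chosen with earlier results of these data known. The genes named are the 9 members, any other listed gene that was a DEG, the gene with the highest level in each list, and the 5 genes closest to the metallothioneins. *MT1A*, *SLC30A5*, *SLC30A7*, *SLC39A5*, *SLC39A6*, the other metal stress genes and *NR3C1* were named after their values were seen. Positions and lengths came from GENCODE 44, which holds 93.2% of the gene IDs. Depth was 15941255 to 33866644 counts per library, so genes near 10 counts are imprecise. Tables were made with pandas 2.3.3 in Python 3.11.15.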

Additional observations from a re-analysis of the deposited data

How the results depend on the processing

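No member was a DEG at any dose under any of the alternatives run, and *MT1E*, *MT1F* and *MT2A* stayed below vehicle at every dose in all of them. The dose trend call of *MT1F* was the exception to stability. The number of members with a trend was 1, and 0 with DESeq2 over all libraries, with no filter on low counts, with at least 10 counts in every library (where *MT1F* is not tested), with the replicate block and with the transcript length offset. Leaving out 1 library gave 0 to 2, with 2 without high-dose replicate 2. Without both libraries rich in short transcripts it was 1, *MT1E*. Without a minimum fold change 1 other zinc or copper gene passed at the high dose, and 4 stress or glucocorticoid genes at the medium dose, where 2 were DEGs. That number was 1 with the length offset and 1 without both libraries, and leaving out 1 library gave 1 to 2, with 1 without vehicle replicate 1, vehicle replicate 2 or medium-dose replicate 2.

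Signs turned only for estimates near 0. *MT1X* in high-dose cells was 0.096 with the length offset and 0.035 without both libraries, and leaving out 1 library gave −0.18 to 0.11, the latter without vehicle replicate 1. *MTF1* in high-dose cells was 0.054 without both, and leaving out 1 gave −0.21 to 0.088, the latter without high-dose replicate 2. *SLC39A10* in high-dose cells was −0.0005 without both, and leaving out 1 gave −0.037 (without vehicle replicate 1) to 0.14. In medium-dose cells it was −0.0115 with the length offset and −0.069 without both, and leaving out 1 gave −0.072 (without vehicle replicate 1) to 0.10. *MTF1* in low-dose cells was −0.0017 in edgeR on 2 groups, −0.0009 with at least 10 counts, −0.0041 with the replicate block, −0.062 with the length offset and −0.031 without both, and leaving out 1 gave −0.060 (without low-dose replicate 1) to 0.045, with a sign below 0 also without vehicle replicate 1. The causes were not tested. No pairing of libraries by replicate number was seen, which does not exclude one. A correlation of deviations over 0.1 was found in 4 of 18 same-numbered pairs (−0.351 to 0.259) and 10 of 36 other pairs (−0.375 to 0.413). Of the 12 libraries 1 was closest to its own number. The highest correlation, 0.413, was between the 2 libraries rich in short transcripts. The replicate block moved the high-dose DEGs from 451 to 379. DEGs over all genes at the high dose numbered 474 with DESeq2 over all libraries, 301 with DESeq2 and 172 with edgeR on 2 groups, 768 without high-dose replicate 2 and 887 without a minimum fold change.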

Other observations

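Copper handling, which metallothioneins share with zinc, was read from 10 genes, of which 9 were tested. In edgeR 0 of the 9 were DEGs at any dose and 0 had an unadjusted p under 0.05 against vehicle, and DESeq2 over all libraries called 0 as well. Of all genes, 20.1%, 11.7% and 7.95% had such a p in edgeR from high to low dose. *SLC31A1*, the copper importer and the gene with the highest level in this list, had 65.7 ± 5 CPM in vehicle and 74 ± 8.49 at the high dose (SD, n = 3), a log2 fold change of 0.17 with an adjusted p of 0.294 by edgeR's quasi-likelihood test.

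Glucocorticoids also induce metallothioneins, and 7 of 9 glucocorticoid target genes were tested. *ERRFI1*, a feedback inhibitor of the EGF receptor and the gene of the list with the highest mean level over all libraries, was the only DEG among them, with 68.1 ± 3.27 CPM in vehicle and 111 ± 2.57 at the high dose (SD, n = 3; log2 fold change 0.71, adjusted p = 3.15e-05 in edgeR). Of all genes 1.26% were DEGs with higher levels at the high dose. At an unadjusted p under 0.05 in edgeR, 3 of the 7 targets were higher at the high dose. At the medium dose 3 were higher and 1 lower, and at the low dose 2 were higher. Such a p in either direction was found for 20.1%, 11.7% and 7.95% of all genes from high to low dose. *NR3C1*, which encodes the glucocorticoid receptor, had 3 counts in all 12 libraries together.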
